A study of Homo sapiens with 4 samples.

Results

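Forkhead transcription factors share a winged-helix DNA-binding domain, the forkhead box, and in humans are grouped into subfamilies named by letter. FOXC proteins act in the development of blood vessels and lymphatics, FOXO proteins are held out of the nucleus when growth factor signalling through PI3K and AKT is active, FOXM1 drives genes of cell division, and FOXH1 carries SMAD proteins to target genes of nodal and activin. Some members are expressed in nearly every tissue and others mark a narrow set of organs. The genes described here are the rows of the deposited tables whose symbol is FOX, a letter from A to S, a number and at most 1 further letter, which gave 44 of 28285 rows. No expression value was used to choose them.

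Levels came from RNA sequencing of differentiated, sorted H1 cells, H1 being an established line of human embryonic stem cells. All cells carried eGFP, a green fluorescent protein, knocked into GATA2, the gene of a zinc-finger factor of blood stem and progenitor cells, and all titles also name Cre, whose role is not given. GFP-positive cells were sorted as eGFP+CD34+CD31+CD43- and labelled hemogenic endothelium, vessel lining that gives rise to blood, and GFP-negative cells were sorted as eGFP-CD34+CD31+CD43- and given as endothelial cells, although every title and source name carries hemogenic endothelium or its initials. Each fraction had 2 libraries, and the labels do not say whether these came from separate cultures, so a p-value measures only the spread between these libraries, which may be technical.

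Values are TPM, which divide a gene's reads by its length and then by the library's sum of such values, so levels can be compared between genes. Read totals are unknown. Low values of genes with a single annotated transcript fell in steps, and if a step is a read, 1 TPM of a 3 kb transcript was worth 4.73 and 3.14 reads in the GFP-positive libraries, replicate 1 first, against 5.24 and 4.14 reads in the GFP-negative libraries. GFP-positive replicate 2 was the shallowest on this scale. Approximate read numbers below rest on that reading and on the longest annotated transcript. None of 20 genes used by every cell was listed at 0 in any library. Of 12 endothelial markers, 12 had a log2 fold change below 0 and 1 passed the test (0 without GFP-negative replicate 1, 3 without GFP-negative replicate 2), with a summed level of 4103.4 and 4350.4 TPM in the GFP-positive libraries and 7244.8 and 6740.7 TPM in the GFP-negative libraries. The endothelial marker that passed was CD34 (log2 fold change -1.29, limma adjusted p = 0.0316), one of the antigens both fractions were sorted on. Hematopoietic markers were summed at 849.1 and 867.8 TPM in the GFP-positive libraries and 289.2 and 301.7 TPM in the GFP-negative libraries. Of these 15 genes, 12 were above 0 in log2 fold change and 3 passed the test. Neither list had a call with a pseudocount of 0.1, without the filter or without a variance trend. No gene of either list was listed at 0 in all 4 libraries.

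About as many forkhead genes lay near the floor as above it, and FOXM1 and a few broadly expressed members made up most of the family's RNA. Of the 44 genes, 8 (18.2%) were listed at 0 in all 4 libraries, against 31.2% of all rows, and 13 more (29.5%) had some signal but stayed under 1 TPM in every library, against 7.02% of all rows. A further 2 reached 1 TPM in 1 library only, and 21 passed the filter of at least 1 TPM in at least 2 libraries. With the floor set at 1 TPM, 21 of 44 genes (47.7%) lay below it in every library, against 38.3% of all rows. That count was 14 with a floor of 0.5 TPM and 24 with a floor of 2 TPM. The 44 genes summed to 356 and 375 TPM in the GFP-positive libraries and to 393 and 378 TPM in the GFP-negative libraries.

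**Figure D1:**
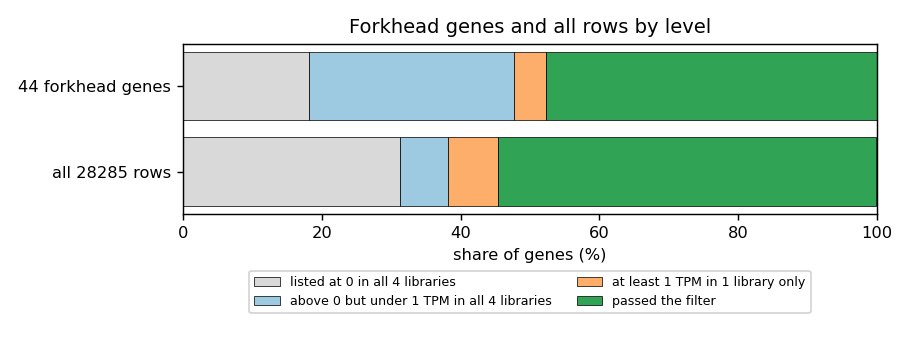
Share of the 44 forkhead genes (upper bar) and of all rows (lower bar) in 4 classes of level, in percent of genes. A smaller share of forkhead genes than of all rows was listed at 0 in all 4 libraries (18.2% and 31.2%), and a larger share lay above 0 but under 1 TPM (29.5% and 7.02%).

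No forkhead gene passed a limma adjusted p of 0.05 (Benjamini-Hochberg over 15425 genes), where 0.447% of all genes tested did (0.123% higher and 0.324% lower in GFP-positive cells). At an unadjusted p under 0.05 there were 4, FOXC1, FOXC2 and FOXN3 with lower levels in GFP-positive cells and FOXH1 with a higher one, which is 19.0% of the 21 tested against a background of 14.1% (6.69% with higher levels and 7.38% with lower ones). In 10 of the 21 (47.6%) the libraries of the fractions did not overlap, 4 higher and 6 lower in GFP-positive cells. Over all genes tested, 44.3% did not overlap (22.8% higher and 21.5% lower), so the share among forkhead genes was near the background. FOXC1 passed the filter only through the GFP-negative libraries and so had to differ. Log2 fold changes were below 0 for 10 of the 21, and for 48.2% of all genes tested. The median log2 fold change was 0.02 over the forkhead genes tested and 0.02 over all genes tested. Log2 fold changes are of TPM + 1, GFP-positive over GFP-negative, a scale that understates changes of low genes; ratios of mean TPM, given for FOXC2 and FOXH1, are without the added 1.

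**Figure D2:**
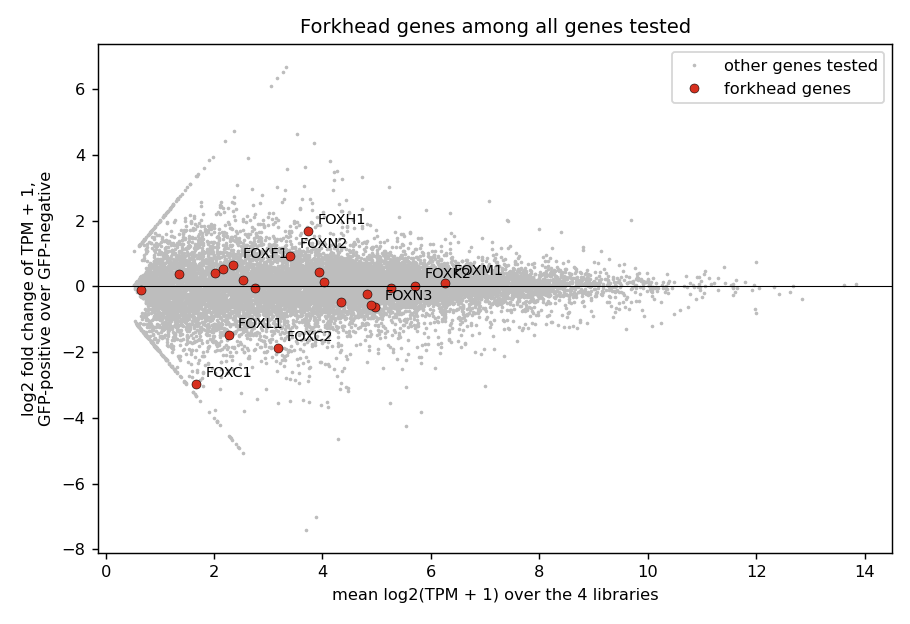
Log2 fold change of TPM + 1 (GFP-positive over GFP-negative) against mean log2(TPM + 1) over the 4 libraries, for all genes tested (grey) and the 21 forkhead genes tested (red). FOXC1 at -2.99 lies lowest and FOXH1 at 1.68 highest among the forkhead genes, and the most abundant, FOXM1, lies at 0.11.

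Among the vascular and mesodermal members, FOXC1 and FOXC2 were at lower levels in GFP-positive cells, without passing the test. FOXC1 (ENSG00000054598; GENCODE v29 on GRCh38, chromosome 6, 1609972 to 1613897, plus strand) takes part in forming arteries, lymphatics and the anterior eye. It was listed at 0 and 0.28 TPM in GFP-positive replicates 1 and 2, against 8.96 and 7.06 TPM in GFP-negative replicates 1 and 2. Both GFP-positive libraries lay under 1 TPM and both GFP-negative libraries above it. These levels stand for about 0 and 1.1 reads in the GFP-positive libraries and about 61.5 and 38.3 reads in the GFP-negative libraries. Its log2 fold change was -2.99 ± 0.50 (SE, 95% interval -4.20 to -1.77), and it did not pass (limma adjusted p = 0.0771). Only 0.298% of genes tested had a lower log2 fold change. FOXC1 passed the filter only through the GFP-negative libraries, which fixed its direction, so this rank is no support for a difference. With a pseudocount of 0.1 in place of 1 the log2 fold change was -5.37, also without a call (limma adjusted p = 0.149).

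RefSeq promoter sequence was at hand for 33 of the 44 genes. It is shown for 2 of the 4 genes with an unadjusted p under 0.05. Not being shown does not mean that sequence was missing. Each window runs from 250 bases before to 50 bases after the start of transcription on GRCh38.p14. CCAAT boxes, on either strand, are in capitals.
FOXC1, chr6:1609665-1609964, plus strand: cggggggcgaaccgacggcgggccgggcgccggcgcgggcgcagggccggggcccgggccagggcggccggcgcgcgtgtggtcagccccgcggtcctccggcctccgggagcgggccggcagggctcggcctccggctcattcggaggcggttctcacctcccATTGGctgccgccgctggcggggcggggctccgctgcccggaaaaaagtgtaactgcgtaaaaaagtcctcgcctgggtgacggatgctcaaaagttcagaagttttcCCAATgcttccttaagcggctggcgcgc
FOXN3, chr14:89619116-89619415, minus strand: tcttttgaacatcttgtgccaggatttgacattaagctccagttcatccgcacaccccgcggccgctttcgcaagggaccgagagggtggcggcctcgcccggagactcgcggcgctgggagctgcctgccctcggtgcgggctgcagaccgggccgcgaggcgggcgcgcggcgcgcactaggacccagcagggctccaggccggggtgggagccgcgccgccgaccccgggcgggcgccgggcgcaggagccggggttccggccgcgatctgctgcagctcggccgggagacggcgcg
Both windows are rich in G and C, at 72.7% for FOXC1 and 74.3% for FOXN3, against a median of 58.7% over 35116 RefSeq promoter windows. CpG dinucleotides numbered 40 for FOXC1 and 42 for FOXN3, against a median of 14. The FOXC1 window holds CCAAT at position 165 (minus strand) and at position 273 (plus strand), counted from its 5′ end, and the FOXN3 window holds none; 34.6% of all windows hold it. Other short motifs were searched on both strands, and neither window holds any of them. The forkhead core TAAACA is in 12.3% of all windows. The GATA site AGATAA is in 10.3% of them. The share for the ETS site CCGGAAG was 10.3% as well. The TATA box, searched as TATAAA, is in 11.5%.

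FOXC2, the paralog of FOXC1 and a factor of lymphatic valves, showed the same direction at a higher level. It had 2.66 and 5.15 TPM in the GFP-positive libraries, against 15.44 and 17.28 TPM in the GFP-negative libraries. Both GFP-positive libraries lay below both GFP-negative libraries. It averaged 3.91 ± 1.76 TPM in GFP-positive cells, against 16.4 ± 1.30 TPM in the GFP-negative fraction (SD, n = 2 each), a 4.19-fold lower mean TPM in GFP-positive cells. Its log2 fold change was -1.87 ± 0.43 (SE, 95% interval -2.92 to -0.82), and it did not pass (limma adjusted p = 0.148). Exact 31-base stretches shared with transcripts of other genes were 2.34% of those in FOXC1 and 3.10% of those in FOXC2. The summed endothelial markers given above also lay lower in GFP-positive cells. The part of these markers in the FOXC difference was not tested, and in bulk RNA fewer cells of a type and less RNA per cell cannot be told apart.

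FOXC2 lies between FOXF1 and FOXL1 on chromosome 16, with gaps of 51411 and 6640 bases (GENCODE v29). FOXL1, a factor of gut mesenchyme, had 0.79 and 3.71 TPM in the GFP-positive libraries, against 5.32 and 9.29 TPM in the GFP-negative libraries (log2 fold change -1.47 ± 0.63, SE; limma adjusted p = 0.373). Leaving out GFP-positive replicate 1 gave -0.78, and leaving out GFP-positive replicate 2 gave -2.17. FOXF1, a factor of lateral plate mesoderm and lung vessels, had 4.89 and 5.94 TPM in the GFP-positive libraries, against 3.09 and 3.08 TPM in the GFP-negative libraries (0.65 ± 0.44; limma adjusted p = 0.588). The libraries of the fractions did not overlap for any of these 3 neighbours, with FOXC2 and FOXL1 lower and FOXF1 higher in GFP-positive cells, and none passed. Over all genes tested, 44.3% did not overlap. FOXF1 rested on about 27.1 and 21.8 reads in GFP-positive cells and on about 19 and 15 reads in GFP-negative cells. On chromosome 6, FOXC1 follows FOXQ1 and FOXF2. FOXQ1 was listed at 0 in all 4 libraries, and FOXF2 at 0.33 TPM in GFP-positive replicate 1 and at 0 in the others. FOXC1 was thus the only gene of that group of neighbours to reach 1 TPM in any library.

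**Figure D3:**
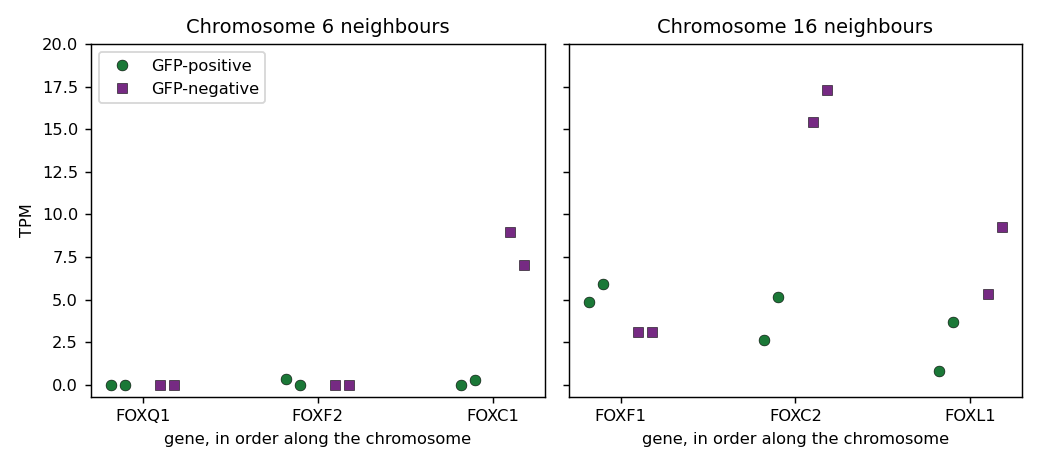
TPM in each library (circles GFP-positive, squares GFP-negative) of forkhead genes that neighbour each other, on chromosome 6 (left) and chromosome 16 (right), in order along the chromosome and with equal spacing. FOXC1, FOXC2 and FOXL1 lie lower in both GFP-positive libraries than in both GFP-negative libraries, and FOXF1 lies higher, while FOXQ1 is at 0.

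The other members of this group were low. FOXS1, a factor of blood vessel walls in mice, had 2.44 and 7.37 TPM in the GFP-positive libraries and 2.19 and 3.34 TPM in the GFP-negative libraries. The fractions overlapped. FOXD1, known from kidney stroma, had 2.79 and 1.26 TPM in the GFP-positive libraries and 0.75 and 1.91 TPM in the GFP-negative libraries, again with overlap. FOXD2 was under 1 TPM in all 4 libraries. The 8 vascular and mesodermal members together summed to 13.9 and 23.71 TPM in the GFP-positive libraries and 36.35 and 41.96 TPM in the GFP-negative libraries. That is 3.90% and 6.33% of all forkhead TPM in GFP-positive cells and 9.25% and 11.1% in GFP-negative cells.

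A list of 16 endothelial genes bound or regulated by forkhead factors was set beside the FOXC genes. Of these, 16 were tested, 0 rose, 1 fell and 15 did not pass; 13 were below 0 and 3 above, with a median log2 fold change of -0.73 against 0.02 over all genes tested. FLT4, the lymphatic receptor VEGFR3, fell in GFP-positive cells, to 104 and 111.27 TPM against 347.07 and 339.81 TPM in the GFP-negative libraries (log2 fold change -1.67 ± 0.14, SE; limma adjusted p = 0.0316). The list held 2 called genes without GFP-negative replicate 2 and 4 among genes with a mean of at least 5 TPM. FLT4 was not called without GFP-negative replicate 1 (limma adjusted p = 0.0641), nor with a pseudocount of 0.1 (limma adjusted p = 0.0638), without the filter (limma adjusted p = 0.0644) or without a variance trend (limma adjusted p = 0.141). ROBO4, an endothelial guidance receptor, had 6.54 and 9.71 TPM in the GFP-positive libraries and 25.5 and 27.86 TPM in the GFP-negative libraries (limma adjusted p = 0.115). ITGB3, an integrin subunit that FOXC proteins regulate in mice, had higher values in GFP-positive cells, 30.65 and 29.47 TPM in the GFP-positive libraries and 5.11 and 5.36 TPM in the GFP-negative libraries (limma adjusted p = 0.0541). Of this list, 6 genes, ROBO4 among them, are also among the endothelial markers. Over the 12 endothelial markers the median log2 fold change was -1.06, with 12 below 0, lower than the -0.73 of the forkhead target list.

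FOXH1, the DNA-binding partner of SMAD2 and SMAD3 in nodal and activin signalling, had the highest fold change of the family. It had 18.88 and 27.58 TPM in the GFP-positive libraries, against 7.14 and 5.80 TPM in the GFP-negative libraries. The libraries of the fractions did not overlap. It averaged 23.2 ± 6.15 TPM in GFP-positive cells, against 6.47 ± 0.948 TPM in the GFP-negative fraction (SD, n = 2 each), a ratio of mean TPM of 3.59 (GFP-positive over GFP-negative). Its log2 fold change was 1.68 ± 0.36 (SE, 95% interval 0.79 to 2.57), and it did not pass (limma adjusted p = 0.127). FOXH1 (chromosome 8, from 144473412 to 144476335 on the minus strand; GRCh38, GENCODE v29) shares 791 of its 2503 exon bases with KIFC2, a kinesin gene on the opposite strand. Whether counting used strand is not given in the sources used here, so reads from this overlap cannot be told apart. KIFC2 had 7.25 and 11.38 TPM in the GFP-positive libraries and 7.93 and 5.38 TPM in the GFP-negative libraries, with overlap between fractions.

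No gene of nodal and activin signalling or among the partners of FOXH1 was called, where 0.447% of all genes tested were. Of 20 genes, 13 were tested, and 0 rose, 0 fell and 13 did not pass. The median log2 fold change was -0.02, with 5 above 0 and 8 below. NODAL, the ligand, was listed at 0 in each GFP-positive library, and above 0 only in GFP-negative replicate 2, at 1.31 TPM. ACVR1C, GSC and T, a receptor and a pair of mesendoderm factors, were listed at 0 in all 4. SMAD2 had 62.49 and 40.21 TPM in the GFP-positive libraries and 58.2 and 54.29 TPM in the GFP-negative libraries. The members with the largest changes at a mean of at least 5 TPM were ACVR2B (log2 fold change -0.38), DRAP1 (0.30) and GDF3 (0.27). Of 10 pluripotency markers, 6 were tested and none passed; their summed level was 709.9 and 583.0 TPM in the GFP-positive libraries and 502.0 and 473.6 TPM in the GFP-negative libraries. Most of this was LIN28A, an RNA-binding protein, with 477.43 and 386.25 TPM in the GFP-positive libraries and 303.69 and 287.34 TPM in the GFP-negative libraries. Of the 6 tested, 3 had a log2 fold change above 0 and 3 below. POU5F1, another of these markers, lay lower in GFP-positive cells, at 0.93 and 0.03 TPM against 9.68 and 5.88 TPM in the GFP-negative libraries. It passed the filter only through the GFP-negative libraries, which fixed its direction. The part of these markers in the FOXH1 difference was not tested.

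**Figure D4:**
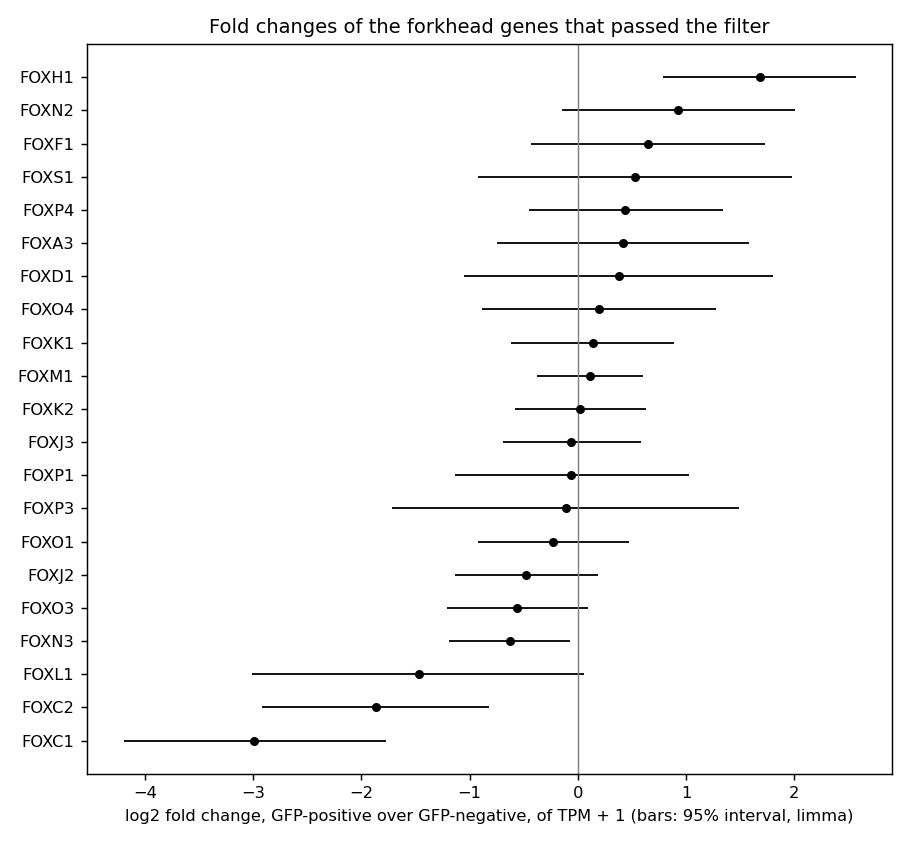
Log2 fold change of TPM + 1, GFP-positive over GFP-negative, of the 21 forkhead genes tested, with 95% intervals from limma, not adjusted for the number of genes. The intervals of FOXC1, FOXC2, FOXN3 and FOXH1 leave out 0, and none of the 4 passes the adjusted threshold.

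FOXO genes, which slow division and raise stress resistance when growth factor signalling is low, were present at middling levels. FOXO3 had 20.8 and 26.45 TPM in the GFP-positive libraries, against 31.42 and 39.16 TPM in the GFP-negative libraries (log2 fold change -0.56 ± 0.27, SE; limma adjusted p = 0.416). Its libraries did not overlap, but 34.6% of the 31-base stretches of its transcripts also occur in transcripts of other genes, so how its reads were assigned is uncertain. FOXO1, required for blood vessel growth in mice, had 29 and 21.88 TPM in the GFP-positive libraries and 25.75 and 34.15 TPM in the GFP-negative libraries, with overlap (log2 fold change -0.23, 95% interval -0.92 to 0.47). FOXO4 had 4.97 and 5.45 TPM in the GFP-positive libraries and 5.32 and 3.63 TPM in the GFP-negative libraries. FOXO6 stayed under 1 TPM throughout.

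No regulator or target of the FOXO genes was called, where 0.447% of all genes tested were. Of 26 kinases, phosphatases, 14-3-3 proteins and cofactors that control them, 26 were tested, 0 rose and 0 fell, with 15 above 0 and 11 below and a median log2 fold change of 0.03. PIK3CB, a catalytic subunit of PI3K, had 36.38 and 20.09 TPM in the GFP-positive libraries and 12.57 and 11.62 TPM in the GFP-negative libraries (limma adjusted p = 0.267). SIRT2, a deacetylase, had 29.88 and 31.49 TPM in the GFP-positive libraries and 65.18 and 48.21 TPM in the GFP-negative libraries (limma adjusted p = 0.202). SGK3, a kinase related to AKT, had 14.23 and 13.25 TPM in the GFP-positive libraries and 11 and 3.48 TPM in the GFP-negative libraries (limma adjusted p = 0.473). Of 31 FOXO target genes, 30 were tested, 0 rose, 0 fell, 14 were above 0 and 16 below, with a median log2 fold change of -0.04. Named targets lay on both sides. BCL6, a repressor, had 4.64 and 3.72 TPM in the GFP-positive libraries and 21.29 and 18.19 TPM in the GFP-negative libraries (limma adjusted p = 0.0953). CITED2, a CBP and p300 cofactor required for fetal blood formation in mice, had 237.13 and 180.94 TPM in the GFP-positive libraries and 86.87 and 100.64 TPM in the GFP-negative libraries (limma adjusted p = 0.077). ERBB3, a receptor kinase, had 8.18 and 13.74 TPM in the GFP-positive libraries and 3.58 and 3.67 TPM in the GFP-negative libraries (limma adjusted p = 0.267).

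FOXM1 was the most abundant forkhead gene in every library. It had 85.77 and 72.16 TPM in the GFP-positive libraries and 80.89 and 65.22 TPM in the GFP-negative libraries, which is 24.1% and 19.3% of all forkhead TPM in GFP-positive cells and 20.6% and 17.3% in GFP-negative cells. The fractions overlapped, and the log2 fold change was 0.11 (95% interval -0.38 to 0.60; limma adjusted p = 0.875). FOXM1 shares 781 of its 4899 exon bases with ITFG2 on the opposite strand, which had 51.68 and 39.85 TPM in the GFP-positive libraries and 46.66 and 51.52 TPM in the GFP-negative libraries. Of 24 FOXM1 target genes of mitosis, 24 were tested, 0 rose and 0 fell, where 0.447% of all genes tested were called. Of these, 22 were above 0 and 2 below, with a median log2 fold change of 0.37 against 0.02 over all genes. Genes measured in the same 4 libraries are not separate observations. Their summed level was 2679.6 and 2049.0 TPM in the GFP-positive libraries and 2038.5 and 1657.1 TPM in the GFP-negative libraries. GFP-positive replicate 2 thus lay close to GFP-negative replicate 1, and replicate 1 was the higher in each fraction. Leaving out GFP-positive replicate 1 gave a median of 0.22, leaving out GFP-positive replicate 2 gave 0.63, and GFP-negative replicate 2 left out gave 0.23. CENPF, a kinetochore protein, had 72.1 and 67.89 TPM in the GFP-positive libraries and 46.55 and 39.26 TPM in the GFP-negative libraries (limma adjusted p = 0.206). NEK2, a centrosome kinase, had 30.35 and 22.4 TPM in the GFP-positive libraries and 16.18 and 12.99 TPM in the GFP-negative libraries (limma adjusted p = 0.327). HMMR, a spindle protein, had 46.82 and 27.98 TPM in the GFP-positive libraries and 29.71 and 18.05 TPM in the GFP-negative libraries, with overlap (limma adjusted p = 0.518).

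FOXJ, FOXK and FOXN members with broad expression together held the largest share of the family's RNA, 42.6% and 45.1% in GFP-positive cells and 45.6% and 43.7% in GFP-negative cells. FOXK2, which like FOXK1 recruits corepressors and restrains autophagy genes, was second in every library, with 42.46 and 63.28 TPM in the GFP-positive libraries and 50.04 and 52.13 TPM in the GFP-negative libraries. FOXK2 shares 1190 of its 9991 exon bases with a gene on the opposite strand, and reads from this overlap cannot be told apart. FOXJ3, an activator known from muscle and germ cells in mice, had 32.85 and 40.53 TPM in the GFP-positive libraries and 44.52 and 32.42 TPM in the GFP-negative libraries. FOXK1 had 16.93 and 15.4 TPM in the GFP-positive libraries and 16.07 and 13.27 TPM in the GFP-negative libraries. All 3 overlapped between fractions, with 95% intervals of the log2 fold change from -0.58 to 0.63 for FOXK2, from -0.69 to 0.58 for FOXJ3 and from -0.62 to 0.89 for FOXK1.

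The libraries of the fractions did not overlap for the remaining 3 of this group, as for 44.3% of all genes tested. FOXN3, a repressor first known as a checkpoint suppressor, had 25.5 and 23.2 TPM in the GFP-positive libraries, against 37.9 and 38.54 TPM in the GFP-negative libraries (log2 fold change -0.63 ± 0.23, SE; limma adjusted p = 0.304). FOXJ2, an activator, had 16.08 and 16.24 TPM in the GFP-positive libraries, against 22.52 and 23.2 TPM in the GFP-negative libraries (-0.48 ± 0.27; limma adjusted p = 0.505). FOXN2 had 18.14 and 10.18 TPM in the GFP-positive libraries, against 8.17 and 5.40 TPM in the GFP-negative libraries (0.93 ± 0.44; limma adjusted p = 0.416), and its log2 fold change was 0.55 without GFP-positive replicate 1. FOXN3 and FOXJ2 were thus lower in both GFP-positive libraries and FOXN2 higher. FOXN3 shares 832 of its 11033 exon bases with a gene on the opposite strand, whose reads cannot be told apart from its own there. None passed.

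**Figure D5:**
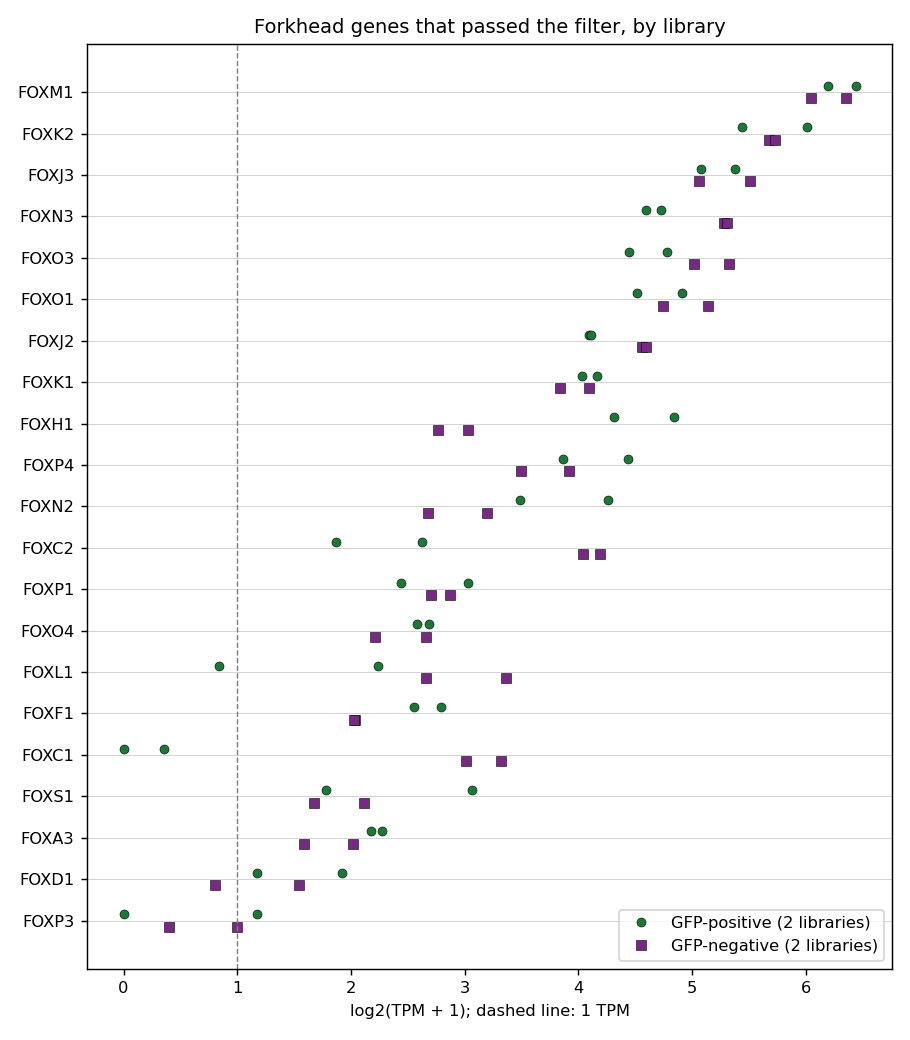
Log2(TPM + 1) in each library of the 21 forkhead genes that passed the filter, by mean level, with GFP-positive libraries (circles) above GFP-negative libraries (squares) and a dashed line at 1 TPM. FOXM1 and FOXK2 lie at the top in both fractions, and the fractions lie farthest apart for FOXC1, FOXC2 and FOXH1.

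FOXP proteins pair with each other and recruit corepressors. FOXP4 had 20.6 and 13.58 TPM in the GFP-positive libraries and 14.12 and 10.27 TPM in the GFP-negative libraries. FOXP1, a factor of lymphocytes and heart, had 4.41 and 7.16 TPM in the GFP-positive libraries and 6.33 and 5.5 TPM in the GFP-negative libraries. Both overlapped. FOXP3, the factor of regulatory T cells, passed the filter at 0 and 1.26 TPM in the GFP-positive libraries and 1.00 and 0.32 TPM in the GFP-negative libraries, or about 0 and 3.2 reads against about 4.3 and 1.1 reads. FOXP2, of brain and lung, reached 1 TPM in GFP-negative replicate 2 only, at 1.31 TPM. Of 26 corepressor and partner genes of the FOXP and FOXK proteins, 26 were tested, 0 rose and 0 fell. Over all genes tested, 0.447% were called. In this list 17 were above 0 and 9 below, with a median log2 fold change of 0.05. CHD4, the remodelling subunit of NuRD, had the largest change, with 311.05 and 417.27 TPM in the GFP-positive libraries and 276.3 and 217.62 TPM in the GFP-negative libraries (limma adjusted p = 0.299), followed by DVL1 (log2 fold change 0.43) and MTA3 (0.39).

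FOXA proteins open chromatin in endoderm and liver. Only FOXA3 passed the filter, with 3.51 and 3.82 TPM in the GFP-positive libraries and 2.01 and 3.05 TPM in the GFP-negative libraries. These did not overlap, yet they rest on about 11.0 and 7.9 reads in GFP-positive cells and about 7.0 and 8.4 reads in GFP-negative cells, and the 95% interval ran from -0.75 to 1.58. FOXA2 was under 1 TPM in all 4 libraries, with 0.26 and 0 TPM in the GFP-positive libraries and 0.47 and 0.90 TPM in the GFP-negative libraries. FOXA1 was above 0 only in GFP-negative replicate 1, at 0.20 TPM.

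The rest were genes known mainly from other organs, 17 in all, and none passed the filter. FOXB1, of the developing brain, came nearest, with 0.86 and 1.15 TPM in the GFP-positive libraries and 0.34 and 0 TPM in the GFP-negative libraries, or about 4.0 and 3.6 reads against about 1.8 and 0 reads. Listed at 0 in all 4 libraries were FOXB2, FOXD3 of neural crest and stem cells, FOXI1 of the inner ear and kidney, FOXN1 of thymic epithelium, FOXN4 of the retina, FOXQ1, FOXR1 and FOXR2. Those above 0 but under 1 TPM in every library included FOXD4, FOXE1 of the thyroid, FOXE3 of the lens, FOXI2, FOXI3, FOXJ1 of ciliated cells and FOXL2 of the ovary. FOXD4 shares 76.8% of its 31-base stretches with other genes, so its value of 0.78 TPM in GFP-negative replicate 1 is uncertain as well as low.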

How the data were processed

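RNA of 4 sorted fractions was extracted with Trizol and made into libraries with the Illumina TruSeq RNA kit, per the labels' protocols. Bowtie and RSEM, without versions, and the builds hg19 and mm10, without their roles, are named per the submitters' processing notes. The authors deposited 1 table per library with a value per gene. The header names no unit, and it was read as TPM from the values, which sum to 996323.64 to 997292.9 per library. A count test had been considered, but the deposited TPM are not counts, so limma (version 3.58.1, R 4.3.3) was run with a variance trend on log2(TPM + 1), two-sided, over the 15425 genes that reached 1 TPM in 2 or more of the 4 libraries, with Benjamini-Hochberg adjustment over all of them and a threshold of 0.05. On simulated data for this comparison with 15425 genes, it recovered 22.8% of genes changed by 1 on the log2 scale, 82.5% of those changed by 2 and 99.6% of those changed by 4. The changed genes were drawn only from genes whose mean log2(TPM + 1) was above that of 5 TPM. These shares therefore do not cover lower genes, FOXC1 among them. Read numbers are approximate. The step between low values was fitted per library on genes with transcripts of at least 1500 bases, and 66.3% to 69.9% of those same values then lay within 0.15 of a whole number.

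Every forkhead gene past the filter is named, with each library's value where the mean is at least 5 TPM. From each pathway list the called genes and the 3 largest changes at a mean of at least 5 TPM are named. Further values, such as those of SMAD2, NODAL, LIN28A, POU5F1, APOA1, GATA6, PRRX1 and low forkhead genes, were chosen after they were seen. Some genes are counted but not reported here by name. The genes and lists were chosen with earlier results of these data known. Gene positions, overlaps and shared stretches come from GENCODE v29 on GRCh38, and promoters from RefSeq on GRCh38.p14; no coordinate was converted between builds. The alternatives were the pseudocount, the filter, the variance trend, the scaling, a replicate block and each library left out.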

Additional observations from a re-analysis of the deposited data

How the results depend on the processing

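The number of genes called over the whole table depended on the settings. It was 69, against 0 with a pseudocount of 0.1, 0 without the filter, 0 without a variance trend (2101, 2230 and 2072 genes at an unadjusted p under 0.05), 164 with a mean of at least 5 TPM, and 18 to 65 with 1 library left out, lowest without GFP-negative replicate 1. No forkhead gene was called by limma in any of these or with upper quartile scaling. With a replicate block 596 genes were called, and 1 forkhead gene, FOXC1 (limma adjusted p = 0.0233). The labels do not say that a number marks a shared batch, and deviations of same-numbered libraries correlated at 0.072. Over the alternatives the log2 fold change ranged from -5.37 to -2.81 for FOXC1 (limma adjusted p from 0.0233 to 0.149), from -2.24 to -1.50 for FOXC2 (0.0542 to 0.418) and from 1.42 to 1.94 for FOXH1 (0.0529 to 0.308). FOXC1 was below the filter without either GFP-negative library and with a mean of at least 5 TPM. Signs turned for 7 genes, and the cause was not tested. With 1 library left out, the log2 fold change ran from -0.41 to 0.48 for FOXP3, from -0.04 to 0.27 for FOXM1, from -0.35 to 0.24 for FOXP1, from -0.26 to 0.30 for FOXK2, from -0.11 to 1.17 for FOXS1, from -0.03 to 0.42 for FOXO4 and from -0.28 to 0.17 for FOXJ3. With upper quartile scaling FOXK2 had -0.01. Other low or variable members kept their sign but not their size, with ranges over left-out libraries from -2.17 to -0.78 for FOXL1, 0.55 to 1.32 for FOXN2, 0.16 to 0.73 for FOXP4, 0.20 to 0.63 for FOXA3, 0.01 to 0.27 for FOXK1 and -0.42 to -0.03 for FOXO1, while FOXD1 ran from 0 to 0.75. Calls within lists moved too. Over all alternatives they numbered 0 to 9 among endothelial forkhead targets, endothelial markers and hematopoietic markers, 0 to 3 among FOXO targets and mesenchymal markers, and 0 to 1 among pluripotency and endoderm markers, and the highest count in each of these lists was reached with the replicate block. The lists of FOXO regulators, FOXM1 targets, FOXH1 partners, corepressors and neural markers held 0 calls by limma under every alternative run. Depth limits the low members most, since 1 TPM stood for a few reads.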

Other observations

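Rows whose symbol starts with FOX but that are not forkhead factor genes by the symbol rule numbered 13. FOXN3-AS1, an antisense transcript of the FOXN3 locus, had 3.01 and 2.73 TPM in the GFP-positive libraries and was listed at 0 in both GFP-negative libraries (limma adjusted p = 0.189). It passed the filter only through the GFP-positive libraries and so had to differ. FOXD2-AS1 had 1.26 and 1.14 TPM in the GFP-positive libraries and 3.85 and 3.16 TPM in the GFP-negative libraries (limma adjusted p = 0.415). FENDRR, a long noncoding RNA beside FOXF1, had 0.87 and 1.28 TPM in the GFP-positive libraries and 0.19 and 0 TPM in the GFP-negative libraries. Mesenchymal markers summed to 1871.0 and 1836.4 TPM in the GFP-positive libraries and 985.8 and 1220.7 TPM in the GFP-negative libraries. Of the 11 tested, 9 were above 0 in log2 fold change and 0 were called by limma. Most of each sum was TAGLN, COL1A1, COL1A2 and COL3A1, and COL1A2 overlapped between fractions. PDGFRA, LUM, DCN, POSTN, TWIST1 and PRRX1 were low, the highest value being 8.11 TPM for PRRX1 in GFP-negative replicate 2. Endoderm markers summed to 123.2 and 98.6 TPM in the GFP-positive libraries and 107.9 and 123.7 TPM in the GFP-negative libraries. These sums hide opposite directions, with 5 of the 8 tested above 0 in log2 fold change, 3 below and 0 called. APOA1 had 8.42 and 7.41 TPM in the GFP-positive libraries, against 38.04 and 63.59 TPM in the GFP-negative libraries. GATA6 had 58.27 and 42.7 TPM in the GFP-positive libraries, against 29.03 and 28.65 TPM in the GFP-negative libraries. Neural and neural crest markers summed to 343.0 and 457.3 TPM in the GFP-positive libraries and 368.0 and 487.1 TPM in the GFP-negative libraries, with SOX1, PAX3 and NEUROG2 among the genes listed at 0 in all 4.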
